A study of Mus musculus with 11 samples.

Results

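The 10 genes described here encode parts of the major histocompatibility complex (MHC) antigen presentation machinery. They were taken by symbol from a fixed list of 6 class I genes (H2-K1, H2-D1, B2m, Tap1, Psmb8 and Psmb9) and 4 class II genes (H2-Aa, H2-Ab1, H2-Eb1 and Cd74), and all 10 matched a single Ensembl gene among the 38393 genes of the deposited tables. The RNA came from mouse eyes stripped of lens and cornea, so that retina, retinal pigment epithelium (RPE), choroid, sclera and ciliary body remained. The study asked which transcripts differ between wild-type (WT) and miR-211-/- eyes before cones are lost, and used 5 WT and 6 miR-211-/- (KO) animals of 1 to 2 months on the C57BL/6 background (C57Bl/6J in the study's methods), with 1 library each. In the KO line a short stretch holding the miR-211 precursor, which lies in an intron of Trpm1, was deleted in the germline, so that every cell of the animal lacks it, while its paralog miR-204 was left intact. According to the study's methods all KO animals were male and the WT animals were of both sexes. The study reports that KO males compared with WT males, with WT females or with all WT animals gave the same enriched gene categories. The labels do not give the sex of each library, so no comparison within a sex was made here. The part of sex in the results below was not tested. The p-values measure the spread between these animals.

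MHC class I molecules are carried by nearly all nucleated cells and present peptides made inside the cell to CD8+ T cells. Peptides are cut by the proteasome, whose inducible form carries the subunits encoded by Psmb8 and Psmb9, and are pumped into the endoplasmic reticulum by a transporter of which Tap1 is one chain. There they are loaded onto a heavy chain (H2-K1 or H2-D1) paired with beta-2-microglobulin (B2m). Class II molecules present peptides from outside the cell to CD4+ T cells and are made mainly by dendritic cells, macrophages and B cells. In C57BL/6 mice the only class II molecule at the cell surface is I-A, an H2-Aa and H2-Ab1 dimer, because the alpha chain of I-E is not made, and H2-Eb1 therefore has no partner. Cd74, the invariant chain, blocks the class II groove until the molecule reaches the endosome. The retina is known as an immune-privileged tissue in which microglia are the resident immune cells.

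The deleted miRNA and its paralog differ near their 3' end and share the seed, bases 2 to 8, which is shown in capitals because it is the part that pairs with target mRNAs. Both mature sequences are from RefSeq (GRCm38.p6), with miR-211-5p at chr7:64205831-64205852 and miR-204-5p at chr19:22750610-22750631, both on the plus strand.
mmu-miR-211-5p: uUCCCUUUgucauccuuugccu
mmu-miR-204-5p: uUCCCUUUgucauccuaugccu
The heptamer AAAGGGA, which pairs with that seed, occurred in the longest annotated 3' UTR of 1 of the 10 genes (Cd74, with 1 match) against 16.6% of the 14556 tested genes with an annotated 3' UTR. The 3' UTRs of the 10 genes were 191 to 790 bases long against a median of 1207 bases over those genes. A heptamer match is a description of the sequence and not evidence of a site in use.

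Promoters of class I and class II genes are known to share an X box and a Y box, and class I promoters also carry a kappa B element and an interferon response element. Parts of the RefSeq promoters (GRCm38.p6) are shown for the members that carry such letters. The part of these boxes and elements in the levels of the genes was not tested. Capitals mark 4 motifs on either strand: a kappa B decamer (the first run of capitals in H2-K1), TGACG of the X box, the CCAAT of the Y box (which reads ATTGG on the opposite strand) and an interferon response core made of a pair of GAAA repeats with 2 bases between them. Overlapping matches form 1 run. The H2-K1 stretch is chr17:34000334-34000478 (minus strand), H2-D1 is chr17:35262903-35263047 (plus), B2m is chr2:122147537-122147646 (plus), H2-Aa is chr17:34287854-34287913 (minus) and H2-Eb1 is chr17:34305767-34305846 (plus).
H2-K1: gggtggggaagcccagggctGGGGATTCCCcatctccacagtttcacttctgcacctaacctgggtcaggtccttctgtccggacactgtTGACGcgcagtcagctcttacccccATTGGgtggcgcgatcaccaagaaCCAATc
H2-D1: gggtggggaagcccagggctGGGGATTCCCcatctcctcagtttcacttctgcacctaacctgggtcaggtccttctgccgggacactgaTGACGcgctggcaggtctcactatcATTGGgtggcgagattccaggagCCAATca
B2m: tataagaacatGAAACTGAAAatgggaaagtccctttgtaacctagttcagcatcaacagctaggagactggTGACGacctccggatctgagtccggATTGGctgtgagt
H2-Aa: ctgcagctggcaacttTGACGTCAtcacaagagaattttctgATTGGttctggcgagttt
H2-Eb1: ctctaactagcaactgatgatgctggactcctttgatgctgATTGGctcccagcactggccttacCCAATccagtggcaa
The stretches of H2-K1 and H2-D1 share their first 37 bases, the kappa B decamer included. In this exact form the decamer occurred in these 2 of the 8 members with a RefSeq promoter and in 0.107% of all 32851 promoters of the same length. TGACG was found in 6 of the 8 (20.8% of all promoters) and CCAAT in 7 of the 8 (37.4%). The interferon response core, in the form searched, was found in B2m alone among the 8 (3.44%). TTCNNNGAA, the core of a STAT site, occurred in Psmb8 alone among the 8 (8.3%). Only strings of these exact forms were searched, so elements spelled with other bases were not counted. A promoter without a match may still hold the element. H2-Ab1 and Cd74 had no entry among these promoters, so no motif was searched for them.

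Tap1 and Psmb9 are transcribed away from each other from starts 225 bases apart, and their promoter windows share 275 bases, so a single stretch, chr17:34187331-34187555 on the Tap1 strand, is shown for both.
Tap1 and Psmb9: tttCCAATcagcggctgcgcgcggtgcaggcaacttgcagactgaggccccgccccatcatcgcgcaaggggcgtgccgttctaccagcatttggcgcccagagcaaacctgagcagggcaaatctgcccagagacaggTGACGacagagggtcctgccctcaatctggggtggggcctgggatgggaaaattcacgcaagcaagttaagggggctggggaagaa
In the Gencode annotation (GRCm38) the exons of these 2 genes also overlap by 212 bases on opposite strands. The library kit did not mark strand, so reads in that overlap cannot be told apart, and the expected count of each gene was whole in 1 of the 11 libraries only.

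Library totals lay between 20282241 and 36317673 expected counts (median 23769826), and CPM values, counts scaled to a common library total, were computed with TMM factors that lay between 0.87 and 1.05. Markers of the labelled tissue were present in every library, with 8 photoreceptor markers summing to 25000 to 39300 CPM and 5 RPE markers to 1210 to 1540 CPM. Although the lens had been removed, 7 lens crystallins summed to 91500 CPM in WT replicate 4, 26900 CPM in KO replicate 3 and 3840 CPM in KO replicate 6, against 106 to 274 CPM in the other 8 libraries. Trpm1, the host gene, averaged 429 ± 67.3 CPM in WT eyes (SD, n = 5) and 432 ± 19.2 CPM in KO eyes (n = 6), and the gene entry of Mir211 held 0 counts in all 11 libraries, so these counts do not check the deletion. One library stood apart for the genes described here: WT replicate 1 held the highest CPM of 9 of the 10 members, against 21.5% of the 15767 tested genes, and the fold changes, ratios, correlations and list medians are therefore also given without it. The libraries also fall into a pair of series by how the study's supplementary count table names them, by mouse number (WT replicates 1 and 2, KO replicates 1 to 3) or by age (WT replicates 3 to 5, KO replicates 4 to 6). In the age series the names give 1 month for WT replicates 3 and 4 and KO replicates 4 and 5. They give 2 months for WT replicate 5 and KO replicate 6. The labels do not say what the split in naming stands for.

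Between genotypes, all 10 MHC genes had lower fitted levels in miR-211-/- eyes, by 0.15 to 0.60 on the log2 scale, and none of them passed the test. In edgeR's likelihood-ratio test the Benjamini-Hochberg adjusted p was 1.00 for each member, against 0.00634% of the 15767 tested genes (1 gene, Xist, the transcript that coats the inactive X chromosome of females) with an adjusted p under 0.1. At an unadjusted p under 0.05, 5 of the 10 were lower in KO (B2m, H2-K1, H2-Ab1, H2-Eb1 and Cd74), against 1.77% of all tested genes. The edgeR quasi-likelihood test gave 3 members (1.88% of all tested genes) and DESeq2 gave 5 (2.21%) at that unadjusted threshold, and neither gave any member at an adjusted p under 0.1. The median log2 fold change of the 10 members was -0.47, while the median over all tested genes was 0.0027 and 48.9% of them had a fold change below 0. Without WT replicate 1 the members' median was -0.17, 9 of the 10 stayed below 0 (48.1% of tested genes) and only Cd74 had an unadjusted p under 0.05 (0.841% of tested genes, lower in KO). In these bulk samples fewer cells of a type and less RNA per cell cannot be told apart.

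**Figure D1:**
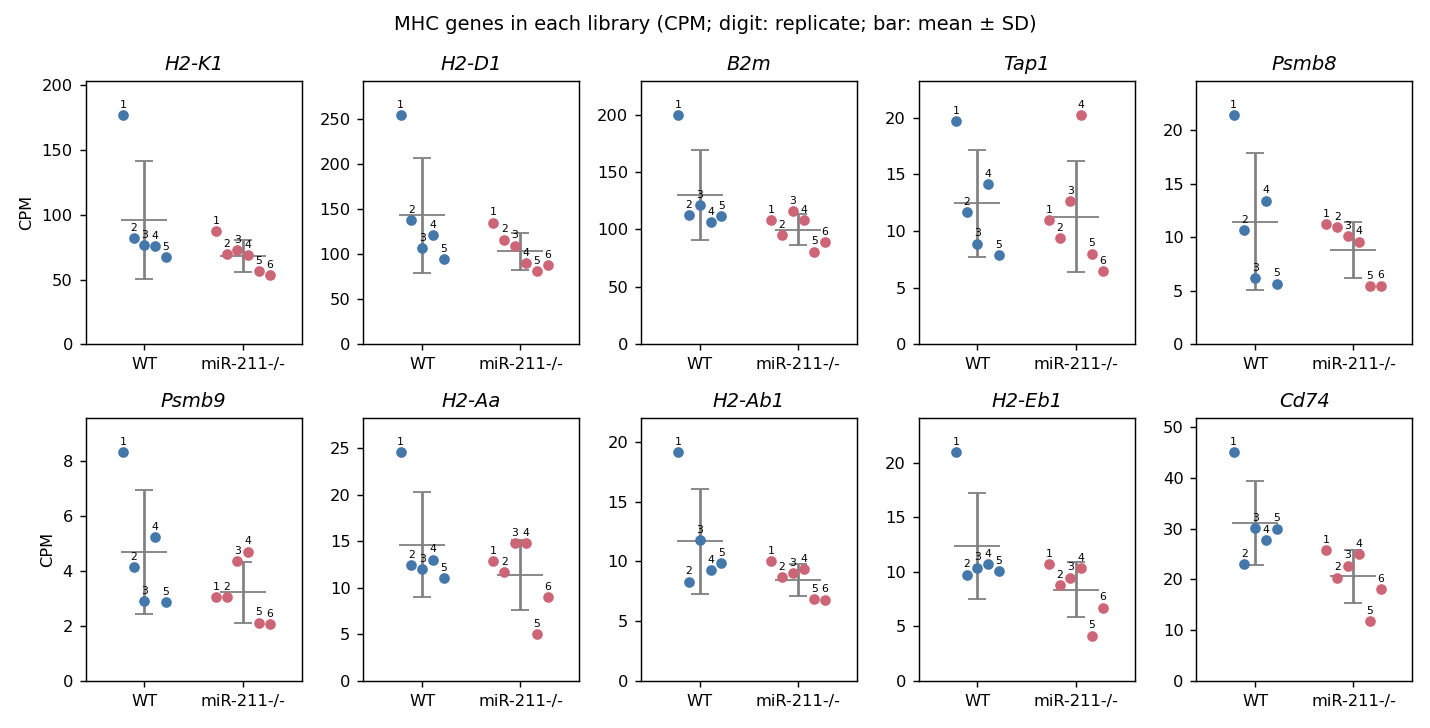
CPM of each member (y axis, from 0) in the 5 WT and 6 miR-211-/- libraries, 1 point per library with its replicate number, and the mean ± SD of each genotype as a bar. WT replicate 1 is the highest point in 9 of the 10 panels and KO replicate 4 in the Tap1 panel, and the genotypes overlap in every panel.

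The classical heavy chain gene H2-K1 was read at 177, 82.2, 76.8, 76.0 and 67.2 CPM in WT replicates 1 to 5. In KO libraries it lay between 53.5 and 87.3 CPM with a median of 69.4 CPM. WT replicate 1 was 2.15 times the next WT library, and the remaining 10 libraries of both genotypes overlapped, with 2 of 6 KO libraries below the lowest WT value. The fitted log2 fold change of H2-K1 was -0.49 ± 0.25 (SE, adjusted p = 1.00, unadjusted p = 0.0483), and -0.15 ± 0.15 without WT replicate 1.

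H2-D1, the second classical heavy chain of this strain, had 254, 138, 107, 121 and 94.0 CPM in the WT libraries. Its KO values ran from 80.9 to 135 CPM (median 99.5 CPM), 3 of 6 of them below every WT library. The fold change of H2-D1 was -0.47 ± 0.25 on the log2 scale (adjusted p = 1.00) and -0.16 ± 0.17 without WT replicate 1. The expected counts of H2-K1, H2-D1 and B2m were fractional in all 11 libraries, as RSEM gives where reads match more than 1 gene, so the split between similar copies is an estimate.

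B2m, the light chain shared by these class I molecules, was at 199, 113, 121, 106 and 112 CPM in WT and between 80.7 and 116 CPM in KO eyes, with a median of 101.8 CPM. Of the KO libraries 3 lay below the lowest WT library. The log2 fold change of B2m was -0.39 ± 0.18 (adjusted p = 1.00, unadjusted p = 0.0302), and an exact two-sided permutation test of log2 CPM gave an unadjusted p of 0.0455, where 0.00216 is the smallest value that test allows. Without WT replicate 1 the log2 fold change was -0.18 ± 0.12 and the exact permutation p was 0.105.

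The genes of peptide supply overlapped widely between genotypes. Tap1 was at 19.7, 11.7, 8.88, 14.1 and 7.86 CPM in WT and between 6.49 and 20.2 CPM in KO eyes (median 10.2 CPM), and its highest library was KO replicate 4. Its log2 fold change was -0.15 ± 0.32 (adjusted p = 1.00) and turned to 0.08 ± 0.32 without WT replicate 1, so no direction can be given for Tap1.

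Psmb8 (LMP7), an inducible proteasome subunit, was at 21.4, 10.7, 6.21, 13.4 and 5.67 CPM in WT and between 5.46 and 11.2 CPM in KO libraries (median 9.86 CPM). The log2 fold change of Psmb8 was -0.39 ± 0.36, and -0.03 ± 0.32 without WT replicate 1. Psmb9 (LMP2), its partner, was the least abundant member, at 8.32, 4.13, 2.89, 5.22 and 2.86 CPM in WT and 2.06 to 4.70 CPM in KO eyes (median 3.05 CPM). For both subunits 2 WT libraries lay above every KO library while the other WT libraries lay among them. The log2 fold change of Psmb9 was -0.55 ± 0.34, and -0.23 ± 0.31 without WT replicate 1, with an adjusted p of 1.00 for both subunits in both fits.

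Among the class II chains, H2-Aa, the I-A alpha chain, was at 24.6, 12.4, 12.03, 13.03 and 11.1 CPM in WT. Its KO values spread from 4.99 to 14.8 CPM (median 12.3 CPM), with KO replicates 5 and 6 below and KO replicates 3 and 4 above every WT library but the first. The log2 fold change of H2-Aa was -0.37 ± 0.30, and -0.10 ± 0.27 without WT replicate 1.

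H2-Ab1, the I-A beta chain, had 19.1, 8.31, 11.8, 9.30 and 9.85 CPM in WT libraries against 6.80 to 10.02 CPM in KO libraries (median 8.86 CPM). KO replicates 5 and 6 were again the lowest. Its log2 fold change was -0.47 ± 0.23 (adjusted p = 1.00, unadjusted p = 0.0418), and -0.22 ± 0.18 without WT replicate 1.

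H2-Eb1, the I-E beta chain, was at 21.0, 9.74, 10.4, 10.7 and 10.1 CPM in WT and from 4.16 to 10.7 CPM in KO eyes (median 9.11 CPM). Apart from the first, the WT libraries lay between 9.74 and 10.7 CPM, and 4 of the 6 KO libraries lay below all of them. The log2 fold change of H2-Eb1 was -0.57 ± 0.29 (adjusted p = 1.00, unadjusted p = 0.0459), and -0.29 ± 0.25 without WT replicate 1. H2-Ea-ps, the entry for the alpha chain that would pair with it, held 0 counts in all 11 libraries.

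Cd74, the invariant chain, had the smallest p of the members. It was at 45.1, 22.9, 30.0, 27.6 and 30.0 CPM in the WT libraries, 31.1 ± 8.31 CPM (SD, n = 5), and between 11.8 and 25.7 CPM in KO libraries (median 21.5 CPM), 20.6 ± 5.15 CPM (n = 6). The genotypes overlapped through WT replicate 2 alone: 4 of the 5 WT libraries were above every KO library and 4 of the 6 KO libraries below every WT library. CPM ranges that do not overlap at all were seen in 0.184% of tested genes and in none of the 10 members. The log2 fold change of Cd74 was -0.60 ± 0.22 (adjusted p = 1.00, unadjusted p = 0.00719), and the exact two-sided permutation p was 0.0195, not adjusted for the 10 genes. Without WT replicate 1 the values were -0.43 ± 0.21 and an exact permutation p of 0.0571, and the highest remaining Cd74 level in WT was 30.0 CPM.

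Within the library series the members kept the sign of their fold change, apart from Tap1. In the mouse number series all 10 had a fold change below 0 (49.5% of tested genes), and their median on the log2 scale was -0.57. In the age series, which does not hold WT replicate 1, this was so for 9 members (49.2% of tested genes), and the median was -0.31. Cd74 was at -0.57 ± 0.31 in the mouse number series and -0.68 ± 0.27 in the age series. H2-K1 was at -0.76 ± 0.34 and -0.30 ± 0.14, H2-D1 at -0.70 ± 0.30 and -0.32 ± 0.13, and B2m at -0.55 ± 0.28 and -0.29 ± 0.15, in the same order. Tap1 was at -0.52 ± 0.30 in the mouse number series and at 0.17 ± 0.47 in the age series. No member passed the edgeR likelihood-ratio test in either series (adjusted p = 1.00 for each in the mouse number series and 0.790 or above in the age series), while 0.0444% and 0.241% of tested genes did. In one fit with the series as a covariate, the lowest adjusted p of the members was 0.395, for H2-D1 and Cd74, against 0.0634% of tested genes that passed and were lower in KO, with 6 members at an unadjusted p under 0.05 and lower in KO against 5.23% of all tested genes. A product term of genotype and series, added after the data were seen, had unadjusted p-values from 0.218 to 0.823 for the 10 members (adjusted p = 1.00 for each in edgeR).

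**Figure D2:**
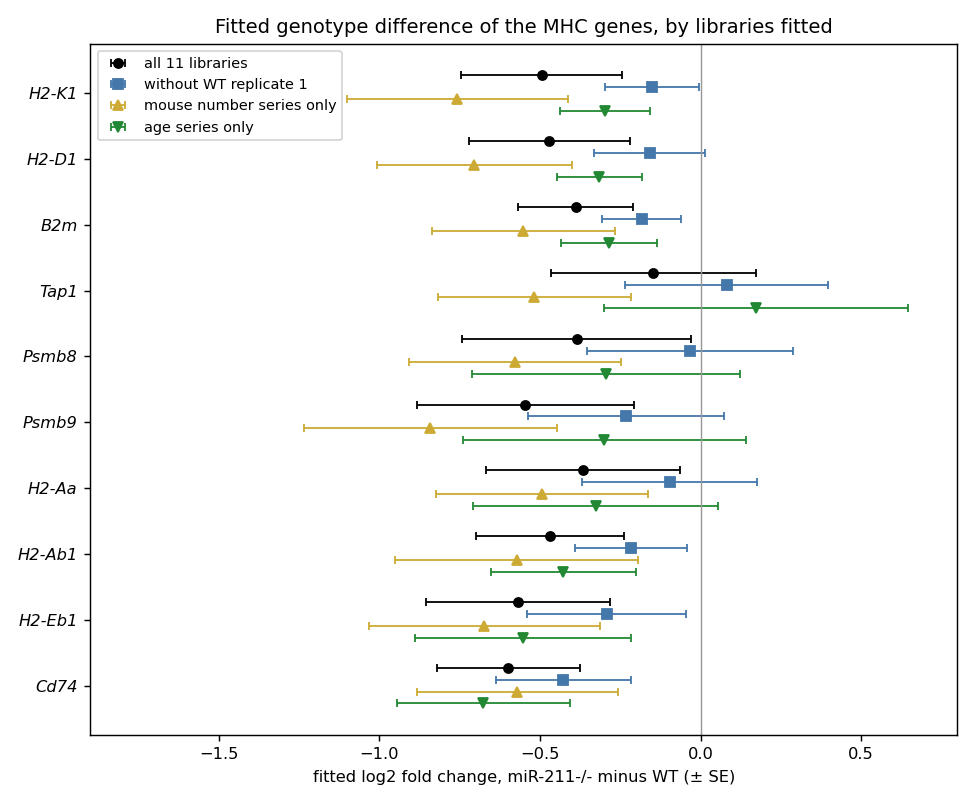
Fitted log2 fold change (x axis, miR-211-/- minus WT, ± SE) of each member in 4 fits: all 11 libraries, without WT replicate 1, and each library series alone. Cd74 lies between -0.43 and -0.68 in the 4 fits. Each member, Cd74 included, lies nearest to 0 without WT replicate 1, and Tap1 lies on both sides of 0.

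Levels were compared between genes per transcript length, as FPKM, in which fragment counts are scaled by transcript length and library total. B2m was highest, with a median of 138 FPKM over the 11 libraries, and stood above 97.4% of the tested genes. H2-D1 (58.1 FPKM) and H2-K1 (46.6 FPKM) followed. Cd74 was the most abundant class II gene at 19.9 FPKM, ahead of its client chains H2-Aa at 11.3 FPKM, H2-Eb1 at 8.53 FPKM and H2-Ab1 at 7.86 FPKM. Psmb8, at 8.29 FPKM, was in the range of the class II chains. Tap1 (3.91 FPKM) and Psmb9 (2.29 FPKM, above 18.2% of tested genes) were lowest. H2-Eb1 was above Psmb8 in 6 of 11 libraries and Psmb8 above H2-Ab1 in 6 of 11, so these neighbours did not differ beyond their spread, while every other neighbour in this order was the higher in 11 of 11 libraries.

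**Figure D3:**
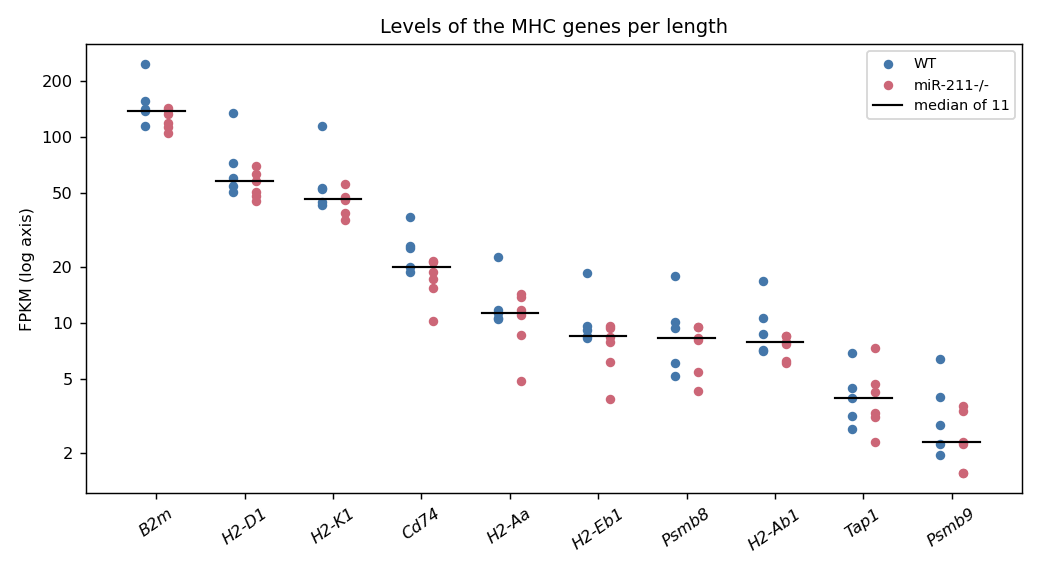
FPKM (log axis) of the 10 members in order of their median over 11 libraries (black line), with WT points left and miR-211-/- points right of each position. The medians run from 138 FPKM for B2m to 2.29 FPKM for Psmb9, and H2-Eb1, Psmb8 and H2-Ab1 overlap.

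Ratios within a library do not depend on its total. The inducible subunit Psmb8 was at 9.07% to 22.3% (median 14.0%) of the FPKM of Psmb5, the standard subunit whose place it takes, in WT, and at 6.86% to 15.6% (median 12.3%) in KO eyes. Psmb9 was at 2.22% to 5.92% (median 2.92%) of its standard counterpart Psmb6 in WT and at 1.74% to 3.94% (median 2.45%) in KO eyes. The log2 ratio of CPM differed between genotypes by -0.18 for Psmb8 to Psmb5 (exact permutation p = 0.532) and by -0.43 for Psmb9 to Psmb6 (exact permutation p = 0.177), within the spread of the libraries in both cases. The H2-K1 to H2-D1 ratio had SDs of 0.12 in WT and 0.13 in KO on the log2 scale, against 0.44 to 0.58 for the other ratios, with 73.4% to 88.1% of the H2-D1 FPKM in WT and 72.3% to 92.0% in KO eyes, and a log2 difference of -0.01 (exact permutation p = 0.877). The expected counts of H2-K1 and H2-D1 were fractional in every library, and the part of shared reads in the small spread of their ratio was not tested. Adjusted over the 3 ratios, the p-values were 0.799, 0.532 and 0.877. Leaving out WT replicate 1, the log2 differences were 0.025 for Psmb8 to Psmb5, -0.25 for Psmb9 to Psmb6 and 0.0013 for H2-K1 to H2-D1 (exact permutation p = 0.957, 0.390 and 0.995).

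**Figure D4:**
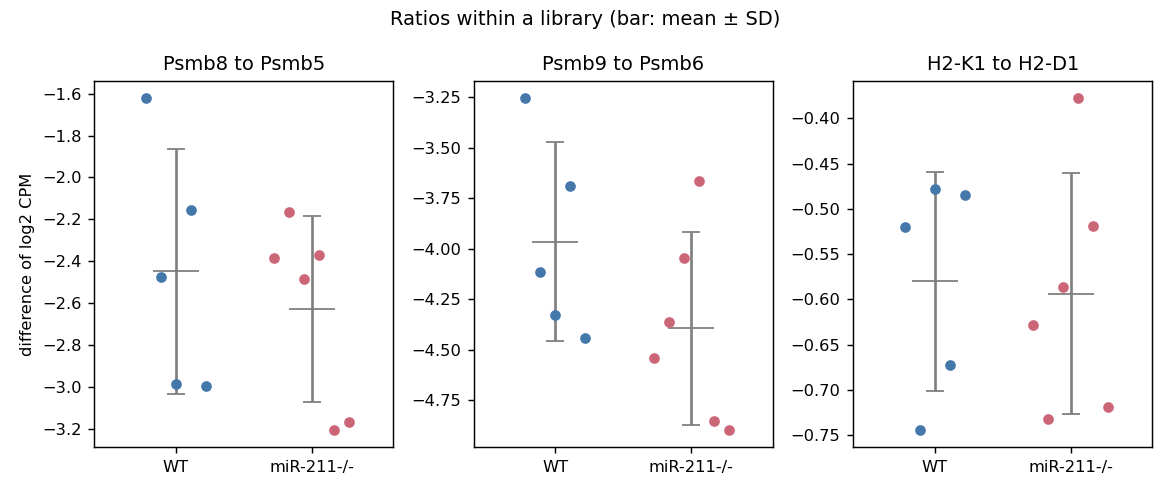
Difference of log2 CPM (y axis) between each gene pair in every library, 1 point per library, with the mean ± SD of each genotype. The genotypes overlap in all 3 panels, and WT replicate 1 holds the highest Psmb8 to Psmb5 and Psmb9 to Psmb6 ratios.

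The members varied together from library to library. Over the 11 libraries all 45 pairs of members had a positive Pearson r of log2 CPM, from 0.56 (Tap1 and Cd74) to 0.97 (H2-Eb1 and Cd74), with a median of 0.82. At a Benjamini-Hochberg adjusted permutation p under 0.05 there were 41 pairs by Pearson r and 15 by Spearman rho. The share of all pairs of tested genes that would pass was not computed, so these counts do not set the members apart from other genes. Class II genes had a median r of 0.89 over 6 pairs, against 0.82 over the 15 class I pairs and 0.79 over the 24 pairs between classes. For H2-Eb1 and Cd74 Spearman's rho was 0.89 (permutation p = 0.00053) and Pearson's r had a permutation p of 1e-05, the smallest that 100000 permutations can give. For H2-K1 and H2-D1, r was 0.96 (permutation p = 2e-05) and rho 0.91 (permutation p = 0.00024). These relations rested in part on WT replicate 1: without it the median r was 0.66, with a range of 0.27 to 0.95, and 22 pairs had an adjusted permutation p under 0.05. Leaving out the 2 libraries farthest from the median of each first gene gave a median r of 0.58 with a lowest value of -0.04. H2-Eb1 with Cd74 and H2-K1 with H2-D1 kept an r of 0.84 and 0.90 there. The expected counts of H2-K1 and H2-D1 were fractional in all 11 libraries, and the part of shared reads in their r was not tested. Deviations from the genotype means had a median r of 0.78.

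Of all tested genes, those whose log2 CPM followed Cd74 most closely over the 11 libraries were H2-Eb1 (r = 0.97), Rab31 (0.91), Ptprc (0.90), Siglec1 (0.89) and Slc2a12 (0.89). Ptprc encodes the leukocyte antigen CD45 and Siglec1 a sialic acid receptor of macrophages. Those closest to H2-K1 were H2-D1 (r = 0.96), Dock2 (0.96), Cd86 (0.96), C1qb (0.95) and Fcer1g (0.94), where Dock2, Cd86 and Fcer1g are known from leukocytes and C1qb is a complement gene made by microglia and macrophages. With WT replicate 1 left out, the r with Cd74 of these 5 genes lay between 0.82 and 0.95, and the r with H2-K1 of the other 5 between 0.72 (C1qb) and 0.90 (Dock2). All these points share library, depth and scaling, and the r values are a description.

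Microglia and macrophages are among the cells that carry both classes of molecule. The summed CPM of 15 microglia and macrophage markers was 574 in WT replicate 1 and 205 to 271 in the other WT libraries, against 156 to 278 in KO libraries, and 14 of the 15 markers were highest in WT replicate 1. The fold change was below 0 for 14 of these 15 genes (48.9% of tested genes), their median was -0.49 on the log2 scale, and 0 had an adjusted p under 0.1 in edgeR. At an unadjusted p under 0.05 there were 4, all lower (1.77% of tested genes): C1qc (-0.66 ± 0.29), Ptprc (-0.59 ± 0.26), C1qb (-0.60 ± 0.30) and Adgre1 (-0.49 ± 0.25). Csf1r, the growth factor receptor of these cells, was at 51.3 to 85.9 CPM in WT and 45.4 to 55.1 CPM in KO libraries (-0.27 ± 0.14). Lyz2, lysozyme, was at 135 CPM in WT replicate 1 and at 21.2 to 58.4 CPM in the other 10 libraries. Without WT replicate 1 the markers' median was -0.09, 12 of the 15 were below 0 and none had an unadjusted p under 0.05. None of the 15 markers was at 0 in all libraries. The summed CPM of the 6 class I members was 680 in WT replicate 1 and 234 to 359 in the other libraries, and that of the 4 class II members 110 and 27.8 to 64.2. KO replicate 5 was lowest in all 3 sums. Between these libraries the order differed: WT replicate 3 held the second highest class II sum, 64.2 CPM, with a marker sum of 205 CPM, and KO replicate 4 a class II sum of 59.4 CPM with a marker sum of 203 CPM. The part of these cells in the MHC values was not tested.

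**Figure D5:**
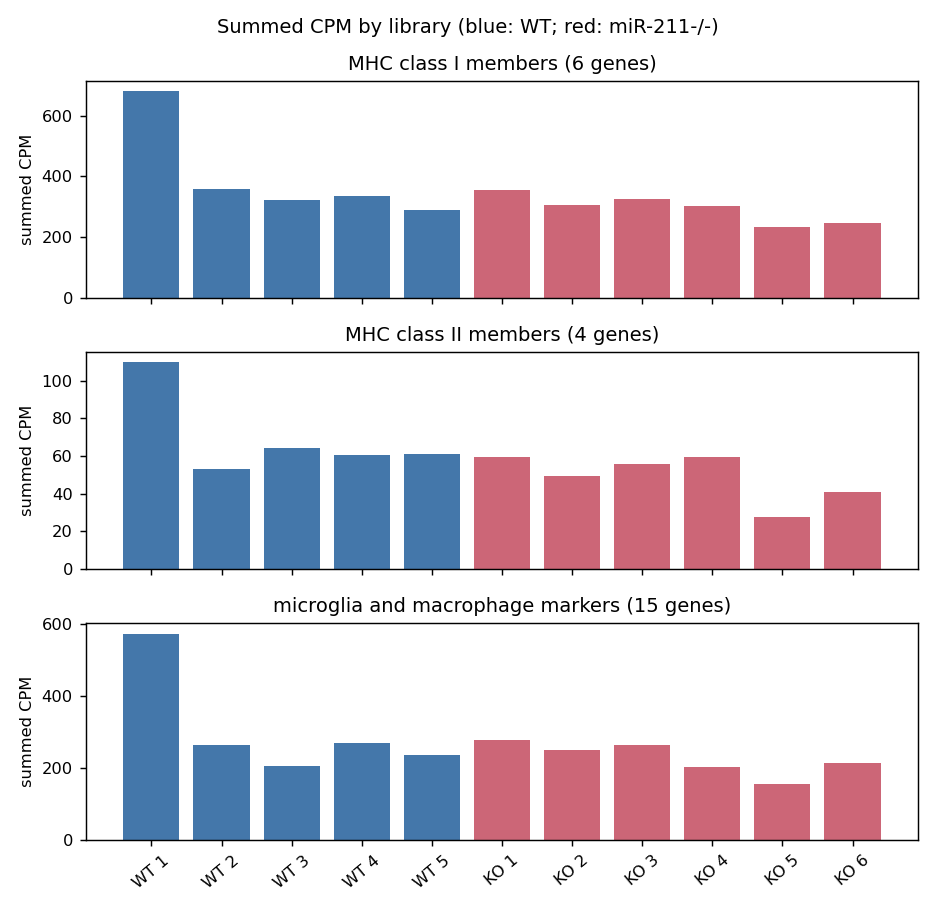
Summed CPM (y axis, from 0) of the class I members, the class II members and 15 microglia and macrophage markers in each library, blue for WT and red for miR-211-/-. WT replicate 1 is highest and KO replicate 5 lowest in all 3 panels.

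B cell and T cell markers were below the filter. None of 6 B cell and 7 T cell markers reached 1 CPM in 5 libraries, and their sums were 0.851 to 2.87 CPM and 1.72 to 3.68 CPM. Of 10 dendritic cell markers 3 were tested, with log2 fold changes of 0.26 for Flt3, 0.01 for Zbtb46 and -0.60 for Clec10a (adjusted p = 1.00 each), and the sum was 16.9 to 23.4 CPM in WT and 14.2 to 19.6 CPM in KO. Itgax (CD11c), a marker of dendritic cells and of some macrophages, was at 5.49 CPM in WT replicate 1 and at 0.628 to 1.25 CPM in the other libraries. The 6 endothelial markers summed to 210 to 339 CPM in WT and 200 to 290 CPM in KO, and 5 of the 6 had a fold change below 0 (median -0.28 on the log2 scale, and -0.16 without WT replicate 1). Adipocyte markers, for tissue around the eye, summed to 552 CPM in WT replicate 1, to 13.5 to 315 CPM in the other WT libraries and to 12.4 to 272 CPM in KO libraries. All 7 adipocyte markers tested had a fold change below 0, with a median of -2.01 on the log2 scale (-1.24 without WT replicate 1). The same held for 7 of 7 skeletal muscle markers (median -0.54, and -0.29 without WT replicate 1), 5 of 5 red blood cell markers (-0.63 and -0.81) and 7 of 7 lens markers (-2.03 and -2.35). Both lens values come from fits that hold WT replicate 4, where the lens markers summed to 91500 CPM. The median lens sum was 175 CPM in WT and 184 CPM in KO libraries, so the lens fold changes do not describe a typical library. No gene of these lists had an adjusted p under 0.1 in the likelihood-ratio test of edgeR. The part of these tissues in the MHC values was not tested either.

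Of the remaining genes of the class I pathway, all 11 genes of peptide supply and loading were tested and had a fold change below 0 (48.9% of tested genes), with a median of -0.11 on the log2 scale, and none had an unadjusted p under 0.05. Tap2, the second transporter chain, was at -0.22 ± 0.20 and Calr, a chaperone of the heavy chain, at -0.18 ± 0.16. Nlrc5, the transactivator of class I genes, was at -1.10 ± 0.62 and held its highest values, 18.4 and 10.1 CPM, in WT replicate 4 and KO replicate 4. The standard proteasome subunits Psmb5, Psmb6 and Psmb7 were at -0.10, -0.06 and -0.07. In the fit without WT replicate 1, 6 of the 11 supply and loading genes were below 0 with a median of -0.0068. Of 15 other class I genes 13 were tested and all had a fold change below 0 (median -0.37, against 48.9% of tested genes below 0), with H2-Q10 at -0.95 ± 0.42, H2-Q7 at -0.64 ± 0.31 and H2-Q6 at -0.47 ± 0.26, the first 2 of which had an unadjusted p under 0.05 (1.77% of tested genes, lower in KO). In the fit without WT replicate 1, 11 of the 13 were below 0 with a median of -0.10 and none had an unadjusted p under 0.05. The adjusted p was 1.00 for all of these genes.

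Of 14 further class II genes 8 were tested and 6 had a fold change below 0, with a median of -0.12 (5 of 8 and -0.03 without WT replicate 1). Ctss, the protease that trims the invariant chain in antigen-presenting cells, was at -0.55 ± 0.30 and was read at 67.7 CPM in WT replicate 1 against 16.8 to 28.0 CPM in the other libraries. Ifi30, a reductase of the endosome, was at -0.23 ± 0.22 and H2-DMa, a chain of the peptide exchanger, at -0.23 ± 0.23. Ciita, the master regulator of class II transcription, stayed below the filter at 0.521 to 1.52 CPM in 10 libraries and 2.41 CPM in KO replicate 4. Of 4 tested costimulation genes the median was -0.15 (-0.08 without WT replicate 1), with Cd86 at -0.45 ± 0.30, Cd274 at -0.21 ± 0.27 and Icosl at -0.09 ± 0.32. The adjusted p was 1.00 throughout.

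Interferon-gamma is a well known inducer of the members, and 11 of 15 genes of its pathway were tested, 7 of them with a fold change below 0 (median -0.10, and 4 of 11 with a median of 0.0035 without WT replicate 1) and none with an unadjusted p under 0.05. Ifng itself was at no more than 0.0828 CPM in any library. Ifngr1, a receptor chain, was at -0.20 ± 0.18, Irf8, a transcription factor of myeloid cells, at -0.29 ± 0.28 and Iigp1, an induced GTPase, at 0.50 ± 0.70. KO replicate 4 stood out for the induced GTPases, with Iigp1 at 27.1 CPM against 2.02 to 6.77 CPM in the other 10 libraries and Igtp at 32.2 CPM against 6.16 to 11.7 CPM. In the same library Tap1 and Ciita were at their highest, while H2-K1 and H2-D1, at 69.0 and 89.6 CPM, were within the range of the other KO libraries. These libraries were picked out after the values were seen.

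Of the 10 members 8 lie on chromosome 17 between H2-K1 and H2-D1 (chr17:33996017-35267499, 1.27 Mb), while B2m lies on chromosome 2 and Cd74 on chromosome 18. Among the 58 remaining tested genes of that span, leaving out the listed presentation genes, 40 (69.0%, against 48.9% of all tested genes) had a fold change below 0 with a median of -0.03 on the log2 scale, 4 were lower at an unadjusted p under 0.05 (1.77% of all tested genes) and 0 had an adjusted p under 0.1 in edgeR. Of these 58 neighbours 18 were highest in WT replicate 1, a larger share than the 21.5% of all tested genes. Without that library 30 of the 58 (51.7%) were below 0, with a median of -0.0094.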

How the data were processed

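RNA of 11 eyes without lens and cornea was sequenced in paired 100-nt reads, and the authors assigned the reads to Gencode M4 genes with RSEM 1.2.19. The deposited tables give, per library, the expected count of each gene (fractional where reads are shared) and FPKM, which the authors' RSEM run scaled by gene length and library total. Groups were taken from the sample titles and genotype labels. For the tests the expected counts were rounded, the 15767 genes that reached 1 CPM in 5 or more libraries were tested, and genotype was fitted with TMM factors and the likelihood-ratio test in edgeR 4.0.16 (R 4.3.3), with Benjamini-Hochberg adjustment over all tested genes and a threshold of 0.1. Standard errors are Wald errors of the fit. CPM uses TMM-scaled totals, and log2 CPM adds a prior count of 2. With 20282241 to 36317673 expected counts per library, the members held 52.8 (Psmb9) to 7172 (H2-D1) expected counts each, and the biological coefficient of variation over all genes was 26.1%.

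Single values were compared with exact two-sided permutation tests over libraries, and correlations with 100000 permutations (numpy). Alternatives were the quasi-likelihood test, DESeq2 1.42.0, upper-quartile or no scaling, other count filters, unrounded counts, limma 3.58.1 on log2(FPKM + 0.5) or log2(FPKM + 0.1), a replicate block, the library series, and leaving out each library. The series were found by matching 63 genes of the study's supplementary count table by proportion. Counts of that table served for this matching only, and none entered a fit. The fitting was tested on simulated data with known decreases. At an adjusted p under 0.1 the likelihood-ratio test recovered 22 of 50 genes lowered by 0.5 on the log2 scale. It recovered 47 of 50 genes lowered by 1 and 98 of 100 lowered by 2, and made 39 false calls among the unchanged genes. The simulated counts varied independently between genes, with no library, series or tissue effect shared by them. These numbers therefore check the fitting and do not give the power for the members.

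The 10 members and all gene lists were chosen with earlier results of these data known. The text names all members, from each list up to 3 genes with the smallest p (and the most abundant marker), and the 5 genes most correlated with Cd74 and with H2-K1. Genes named beyond this, to complete a count of 5 or fewer (Adgre1) or to describe 1 library (Lyz2, Itgax, Ciita, Igtp), were chosen after their values were seen. Muscle and blood lists had summed levels from 899 to 9330 CPM and from 145 to 1940 CPM, with 0 of their 12 genes past the threshold. Motifs and 3' UTRs were searched in RefSeq promoters and Gencode M21 transcripts, both on GRCm38, the assembly of the authors' annotation.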

Additional observations from a re-analysis of the deposited data

Results flagged for a closer look

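In the WT group of 5, replicate 1 lay far above the other libraries for 5 members: H2-K1 at 177 CPM, H2-D1 at 254 CPM, B2m at 199 CPM, H2-Aa at 24.6 CPM and H2-Eb1 at 21.0 CPM. In each case its gap to the next WT library, divided by the range of the group, passed Dixon's 95% critical value. Of 26 groups checked 5 were picked out, all for this library, where chance picks about 1 in 20, and the members are correlated, so these are not independent cases. The microglia and macrophage marker sum was 574 CPM in the same library against at most 278 CPM elsewhere, and the adipocyte marker sum 552 CPM against at most 315 CPM. Their part in the MHC values was not tested.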

How the results depend on the processing

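None of the 10 members had an adjusted p under 0.1 in any of the 24 alternative fits (lowest 0.395, for H2-D1 with the library series as a covariate), and 238 of the 240 member values kept their sign. The exceptions were Tap1 at 0.17 in the age series alone and at 0.081 without WT replicate 1 (-0.40 to 0.081 over all libraries left out in turn). The members' median log2 fold change was -0.47 with all libraries and ran from -0.57 to -0.17 when each library was left out in turn, nearest to 0 without WT replicate 1. With the replicate block, which leaves out KO replicate 6, it was -0.35, with 0 members and 10 genes past the threshold. Same-numbered libraries deviated together with correlations from -0.33 to 0.63, so the numbers were not taken as pairs, and WT replicates 3 and 4 correlated best with another KO number. The number of genes past the threshold was 1, and became 0 by the quasi-likelihood test (446 at an unadjusted p under 0.05), 2 by DESeq2, 2 with a filter of 1 count in any library, 10 with the series as a covariate, 7 in the mouse number series, 38 in the age series, 0 on either FPKM scale (414 and 417 at an unadjusted p under 0.05), and 1 to 11 when each library was left out (11 without KO replicate 1, 2 without WT replicate 2). The share of tested genes with a fold change below 0 was 48.9% with TMM factors, 34.4% without them and 34.0% on the FPKM scale, while all 10 members stayed below 0 in each. None of the genes of the 6 pathway lists passed the threshold in the 5 fits in which they were counted, one of them without WT replicate 1, added after the data were seen. Of the 10 genes past the threshold with the replicate block, 3 were adipocyte markers (Cfd, Cidec and Pck1). The pairs of members with an adjusted permutation p under 0.05 went from 41 to 22 without WT replicate 1. The Psmb8 to Psmb5 ratio ran from -0.32 to 0.025, the Psmb9 to Psmb6 ratio from -0.57 to -0.25 and the H2-K1 to H2-D1 ratio from -0.057 to 0.014 when each library was left out, and the last was 0.011 with same-numbered pairs as a replicate block. The cause of these changes was not tested. Depth limits Psmb9 most, which held 52.8 expected counts in its lowest library.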
